A study of Mus musculus with 14 samples.

Results

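The interferon-stimulated genes followed here were Ifit1, Ifit3, Irf7, Irf9, Stat2, Isg15, Usp18, Rtp4 and Parp14. They were chosen by name, as the rows of the deposited count table that carry these 9 symbols among the 24421 genes counted, and all 9 had enough reads to be tested among 14897 genes. The labels give hippocampus as the source of the RNA, from 7 mice labelled LPAR2-/- and 7 wild-type (WT) mice, while the text of the study also names the dentate gyrus. The sources differ on the library kit, so that neither the subregion nor the type of library is certain. Lpar2 encodes a receptor for lysophosphatidic acids, lipid messengers that act on glutamatergic synapses. All 14 mice were naive males on a mixed 129 and C57BL/6 background. Every mouse is labelled as 10 to 12 weeks old, whereas the description of the series speaks of older animals, so the age stays uncertain. The mutant allele removes a piece of exon 2 of Lpar2. Mutant and control mice came from separate colonies, so that genotype and colony cannot be told apart.

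Type I interferons are secreted when a cell senses foreign nucleic acids. They bind the receptor pair IFNAR1 and IFNAR2 and thereby activate STAT2, which joins IRF9 in the complex ISGF3. This complex binds the interferon-stimulated response element (ISRE) in front of its target genes. In the brain, microglia, macrophages at the borders, endothelium, astrocytes and neurons can all respond, and a low tonic level of the response is known without infection. The 9 genes cover the steps of this route. IRF9 and STAT2 are subunits of ISGF3, and IRF7 is the factor that amplifies the transcription of interferon genes. IFIT1 and IFIT3 bind each other and viral RNA, RTP4 is a chaperone for membrane receptors that also restricts viruses, and PARP14 is a mono-ADP-ribosyltransferase. ISG15 is a ubiquitin-like modifier, and USP18 removes it from proteins and also blocks IFNAR2.

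Promoter sequences are shown because the ISRE is the element through which these genes are known to be addressed. Sequences from 250 bases before to 50 bases after the gene start were taken from RefSeq (GRCm38.p6, the mm10 build of the counts) and were found for 6 of the 9 genes, which leaves Usp18, Rtp4 and Parp14 without one. They were searched on both strands for GAAANNGAAA, whose reverse complement is TTTCNNTTTC, and overlapping matches were kept. Matches stood in 4 of the 6 genes, Ifit1, Ifit3, Stat2 and Isg15. Of all 32851 mouse promoter windows of the same length, 1131 (3.44%) held the motif and 74 (0.225%) held it 2 times or more. Capitals mark the matches, and each stretch runs 5′ to 3′ on the strand of the gene.
Ifit1: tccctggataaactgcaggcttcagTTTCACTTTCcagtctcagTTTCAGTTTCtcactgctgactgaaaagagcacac
Ifit3: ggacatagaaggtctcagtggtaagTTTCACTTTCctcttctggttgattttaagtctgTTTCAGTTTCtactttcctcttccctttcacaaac
Stat2: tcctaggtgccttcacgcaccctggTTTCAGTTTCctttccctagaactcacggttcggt
Isg15: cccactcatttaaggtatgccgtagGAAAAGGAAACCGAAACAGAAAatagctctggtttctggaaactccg
The Ifit1 stretch lies at chr19:34640760-34640838 on the plus strand, and its matches begin 104 and 85 bases upstream of the gene start. In Ifit3 (chr19:34583348-34583441, plus strand) they begin 156 and 122 bases upstream. The single match of Stat2 (chr10:128270251-128270310, plus strand) begins 222 bases upstream of the RefSeq start used for its window, and 300 bases upstream of the start in the table of counts, which coincide in the other 3 genes. Isg15 (chr4:156200850-156200921, minus strand) holds 3 overlapping matches that begin 78, 72 and 66 bases upstream. The windows of Irf7 and Irf9 held no match, and none of the 6 genes held TTCNNNGAA, the letters of the interferon-gamma activated site, which stand in 8.3% of all windows.

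Depth ranged from 15434620 to 23258949 reads assigned to genes per mouse and showed no detectable difference by genotype (p = 0.893, two-sided, by exact permutation). Lpar2 itself stood at 8.19 to 12.3 CPM, the reads of a gene scaled to the size of its library, in the mice labelled LPAR2-/- and at 1.51 to 3.22 CPM in WT mice (log2 fold change 2.01, SE 0.157, edgeR adjusted p = 8.22e-07). The targeted gene was therefore higher in the libraries labelled as its knockout, and counts summed over the whole gene do not show whether the deleted part was transcribed. Whether labels were exchanged was not tested, and an exchange would turn every direction below, all of which refer to the labels as given. Markers of the hippocampal fields were present in all mice, with summed levels of 588 to 728 CPM. LPAR2-/- mouse 2 stood apart in choroid plexus markers (286 CPM against 25.4 to 52.0 CPM in the other 13 mice) and LPAR2-/- mouse 3 in oligodendrocyte markers, of which it had the highest sum (3876 CPM). None of the 9 interferon-stimulated genes was called without these 2 mice (edgeR, as below, with 6.38% of all genes called), and Ifit3 then had an adjusted p of 0.0647.

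None of the 9 interferon-stimulated genes differed between the genotypes at an adjusted p of 0.05 (edgeR quasi-likelihood test with Benjamini-Hochberg adjustment over all genes tested), beside 6.77% of all genes tested (494 genes, 3.32%, higher and 515, 3.46%, lower in mice labelled LPAR2-/-). Ifit3 was nearest to the threshold and was the only one of the 9 with an unadjusted p under 0.05, a limit that 22.4% of all genes passed. DESeq2, applied to the same counts, called Ifit3 and no other of the 9, while it called 9.32% of all genes. The fitted change was above 0 for 7 genes and below 0 for Irf9 and Stat2, and its median was 0.18 on the log2 scale, against 0.003 over all genes tested. In each of the 9 genes the CPM ranges of the genotypes overlapped, as they did in all but 1.77% of the genes tested.

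**Figure D1:**
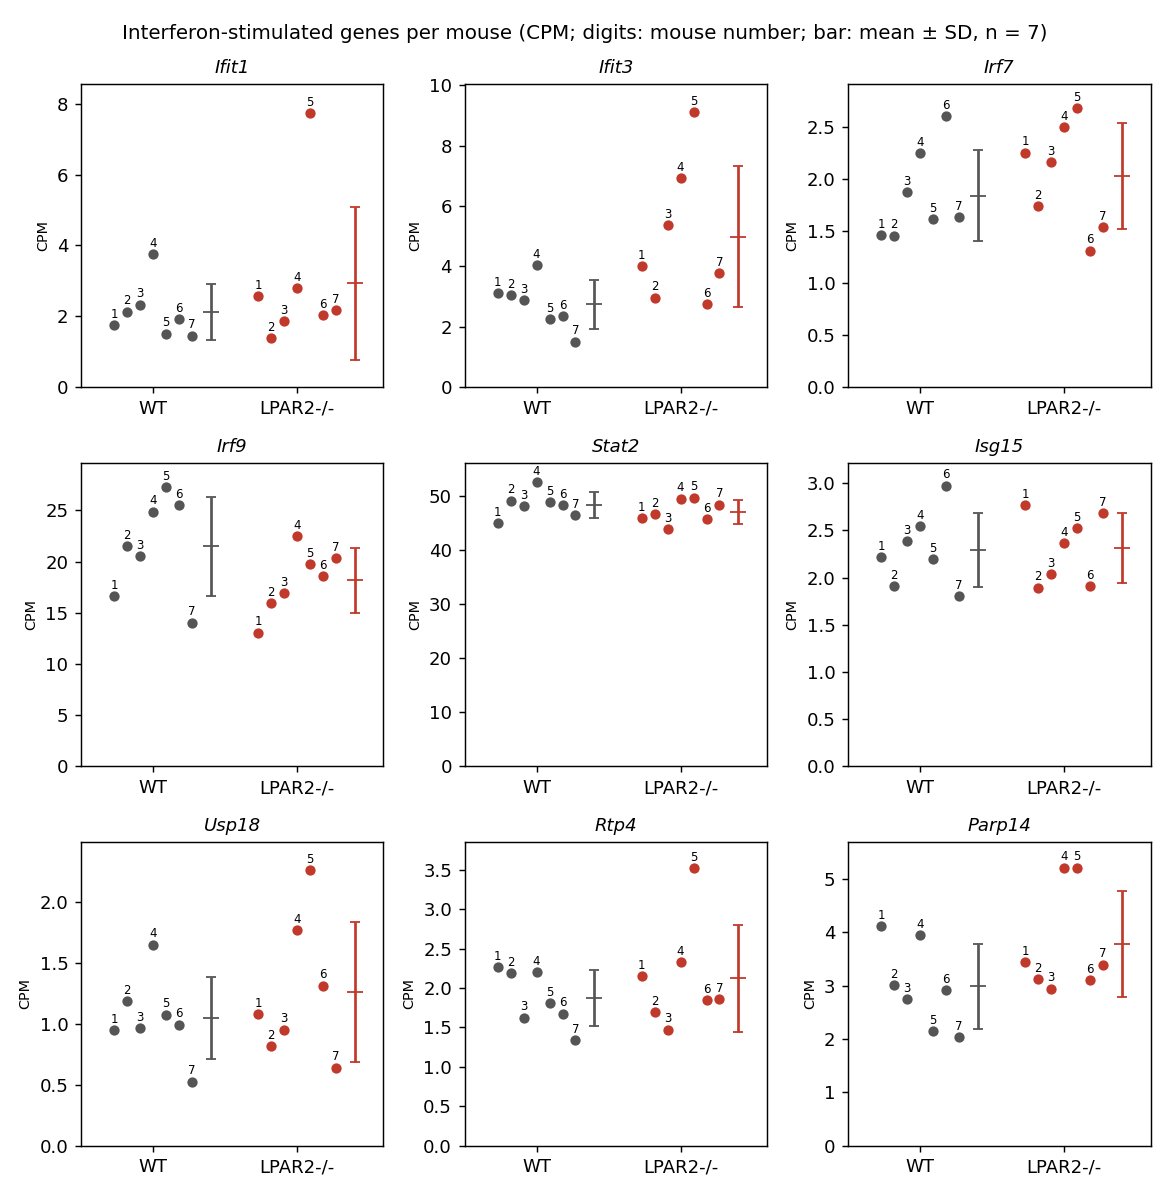
Level of each of the 9 genes in every mouse (y axis, CPM on a linear scale from 0; grey points, WT; red points, LPAR2-/-; digits, mouse number; bars, mean ± SD, n = 7). The ranges overlap in every panel, and LPAR2-/- mice 4 and 5 and WT mouse 4 lie high in most panels.

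None of the 3 factors that carry the signal passed the test. Stat2 (chr10:128270576-128292849, 24 exons in the table of counts) was measured at 47.2 ± 2.19 CPM in mice labelled LPAR2-/- and 48.4 ± 2.37 CPM in WT mice (SD, n = 7 each). Its lowest, median and highest values were 43.9, 46.7 and 49.8 CPM against 45.0, 48.4 and 52.6 CPM. The log2 fold change of Stat2 was -0.04 (95% confidence interval -0.12 to 0.05, adjusted p = 0.629), the narrowest interval among the 9 genes. Irf9 (chr14:55603985-55610030) ran from 13.1 over a median of 18.6 to 22.5 CPM in mice labelled LPAR2-/- and from 14.1 over 21.5 to 27.3 CPM in WT mice. Only 1 of the 7 LPAR2-/- mice lay above the WT median of Irf9, yet its fold change of -0.24 (interval -0.55 to 0.07) missed the threshold with an adjusted p of 0.352. Irf7 (chr7:141263183-141266424) was scarcer, at 1.31, 2.16 and 2.68 CPM (lowest, median, highest) in LPAR2-/- mice and 1.46, 1.63 and 2.60 CPM in WT mice. Its log2 fold change was 0.16 (interval -0.23 to 0.54, adjusted p = 0.657).

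The genes of the RNA-binding IFIT proteins had the largest fitted changes of the 9, but also the largest spread between mice. Ifit3 (chr19:34583529-34588982) reached 2.75, 4.00 and 9.10 CPM (lowest, median, highest) in mice labelled LPAR2-/- and 1.52, 2.89 and 4.05 CPM in WT mice. LPAR2-/- mice 3, 4 and 5 lay above every WT mouse, and no LPAR2-/- mouse lay below the lowest WT mouse. The means were 4.98 ± 2.32 and 2.75 ± 0.802 CPM (SD, n = 7 each). The log2 fold change of Ifit3 was 0.86 (SE 0.269, interval 0.29 to 1.43), with an adjusted p of 0.0706 from edgeR and 0.0213 from DESeq2. An exact two-sided permutation test over all arrangements of the 14 mice into 7 and 7 gave p = 0.0204 for Ifit3 alone, not adjusted for the number of genes. Its fold change stayed between 0.65 and 0.98 when any 1 mouse was left out, and edgeR called it without LPAR2-/- mouse 6 (adjusted p = 0.0445) and in none of the other 13 fits of this kind.

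Ifit1 (chr19:34640889-34650009) had lower values of 1.38, 2.18 and 7.73 CPM in mice labelled LPAR2-/- and 1.46, 1.92 and 3.75 CPM in WT mice. The highest value of each genotype stood apart, since the next mouse reached 2.80 CPM and 2.34 CPM, respectively. The fold change of Ifit1 was 0.46 with a wide interval of -0.28 to 1.21 (adjusted p = 0.466). It rested on LPAR2-/- mouse 5, without which it was 0.01 (adjusted p = 0.991).

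Rtp4 (chr16:23609919-23614222) stood apart in LPAR2-/- mouse 5 but in no WT mouse. Its values were 1.47, 1.86 and 3.52 CPM in LPAR2-/- mice and 1.34, 1.81 and 2.27 CPM in WT mice, and its log2 fold change of 0.18 (interval -0.22 to 0.57, adjusted p = 0.624) was also 0.01 without LPAR2-/- mouse 5. Parp14 (chr16:35832878-35871382) was higher than the WT median in 7 of 7 LPAR2-/- mice, with 2.94, 3.39 and 5.21 CPM against 2.04, 2.91 and 4.11 CPM. The groups nevertheless overlapped, and the fold change of Parp14 was 0.34 (interval -0.06 to 0.73, adjusted p = 0.300).

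The conjugation arm did not separate the genotypes. Isg15 (chr4:156199424-156200818) was measured at 2.31 ± 0.368 CPM in mice labelled LPAR2-/- and 2.29 ± 0.395 CPM in WT mice (SD, n = 7 each). Its lowest and highest values were 1.89 and 2.77 CPM in the former and 1.81 and 2.98 CPM in the latter. The log2 fold change of Isg15 was 0.01 (interval -0.27 to 0.30, adjusted p = 0.971), and its sign turned in 5 of the 14 fits without 1 mouse. Usp18 (chr6:121245906-121270917) had the fewest reads of the 9 genes, 9 to 43 per mouse, not corrected for length. It ran from 0.640 over a median of 1.076 to 2.26 CPM in LPAR2-/- mice and from 0.525 over 0.992 to 1.65 CPM in WT mice. Its log2 fold change was 0.27 (interval -0.31 to 0.84, adjusted p = 0.607), and 0.07 without LPAR2-/- mouse 5.

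**Figure D2:**
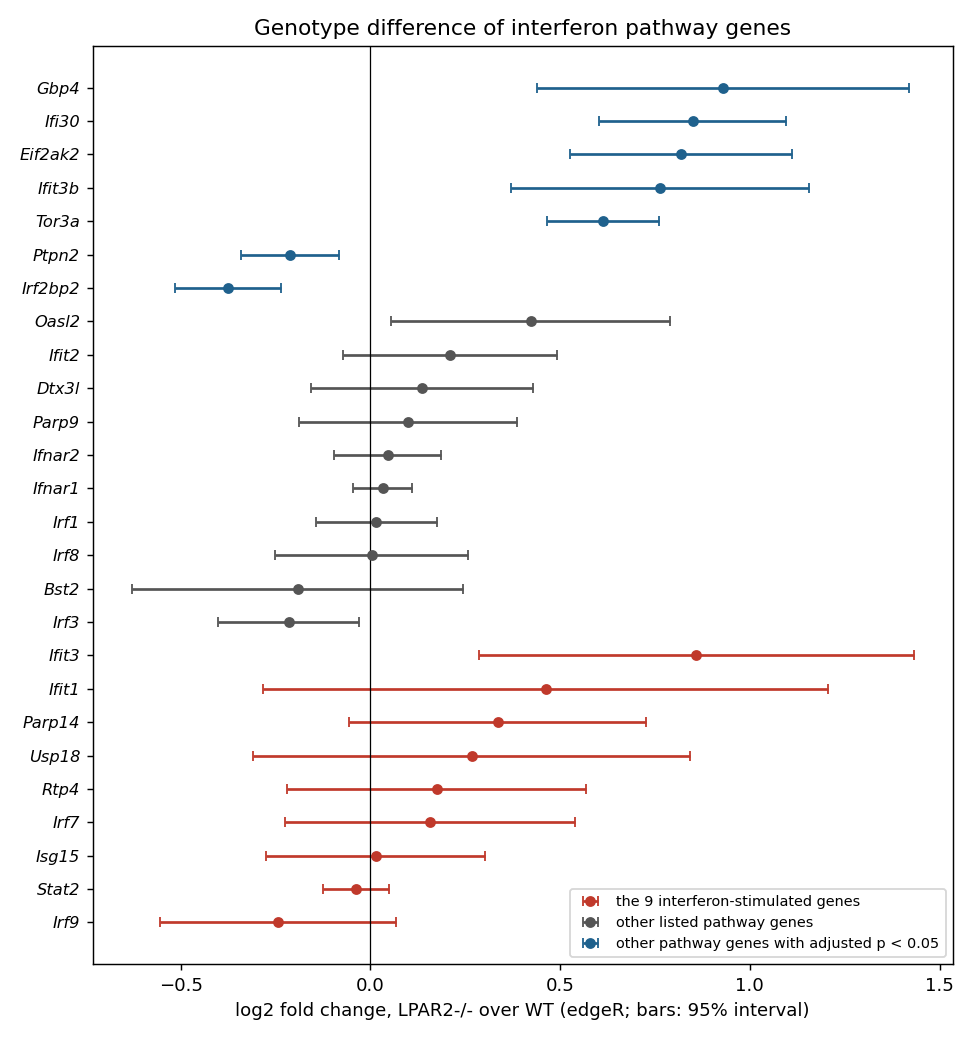
Log2 fold change of LPAR2-/- over WT (x axis; points, edgeR estimate; bars, 95% confidence interval; n = 7 mice per genotype) for the 9 genes (red), other listed pathway genes (grey) and the 7 pathway genes past the threshold (blue). The intervals of 8 of the 9 genes span 0, and that of Ifit3 runs from 0.29 to 1.43.

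Levels were compared between genes per length of exon, in reads per kilobase of exon and per library size (RPKM) computed from the counts, in WT mice. Stat2 was highest at 11.02 ± 0.538 RPKM, followed by Irf9 at 7.99 ± 1.81 and Isg15 at 3.03 ± 0.522 RPKM (SD, n = 7). These 3 genes did not overlap with their neighbours in the order. The gap between Isg15 (lowest 2.39 RPKM) and Ifit3, the next gene (highest 2.03 RPKM), is uncertain. Reads that aligned to both Ifit3 and its close copy Ifit3b were not kept, so the level of Ifit3 may be understated. Ifit3 (1.38 RPKM), Rtp4 (1.19), Irf7 (0.991), Ifit1 (0.805), Usp18 (0.591) and Parp14 (0.412) followed, and among these 6 the range of each overlapped that of the next. The subunits of ISGF3 thus had the highest levels of the 9 genes in WT mice.

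Except for Stat2, each of the 9 genes varied among mice of the same genotype more than the median gene, in a comparison not matched for expression level. The biological coefficient of variation estimated by edgeR had a median of 0.203 over the 9 genes and of 0.0897 over all genes tested. Ifit1 had the highest value, 0.428, which only 1.46% of all genes exceeded. Ifit3 (0.334) and Usp18 (0.295) were exceeded by 3.01% and 4.21% of genes. Stat2 stood at the other end with 0.0558, and 90.4% of genes varied more.

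Many of the 9 genes were high or low in the same mice, although the highest mouse differed between genes. In WT mice it was mouse 4 for Ifit1, Ifit3, Stat2 and Usp18, mouse 6 for Irf7 and Isg15, mouse 1 for Rtp4 and Parp14, and mouse 5 for Irf9. LPAR2-/- mouse 4 was among the 2 highest of its genotype in 8 of the 9 genes, LPAR2-/- mouse 5 in 7 and WT mouse 4 in 8. All 9 genes lay above the mean of the genotype in each of these 3 mice. WT mouse 7 was the lowest WT mouse in 7 genes, and in LPAR2-/- mouse 2 no gene lay above the mean of its genotype. High and low mice thus occurred in both genotypes.

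**Figure D3:**
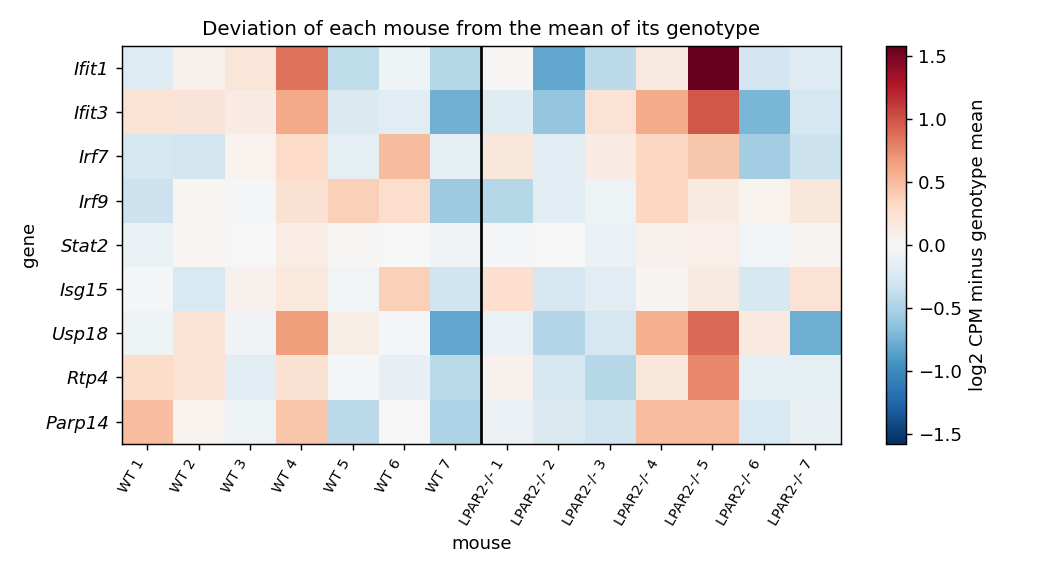
Deviation of each mouse (x axis, WT left of the line, LPAR2-/- right of it) from the mean of its genotype, for each of the 9 genes (y axis), in log2 CPM (colour, red above and blue below the mean). LPAR2-/- mice 4 and 5 and WT mouse 4 are above the mean in all 9 genes, and WT mouse 7 is below it in all of them.

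Correlations of log2 CPM were taken within each genotype, over 7 mice, so that a difference between genotypes could not create them. In WT mice, 35 of the 36 pairs of genes had a positive Pearson correlation, with a median r of 0.49 (range -0.18 to 0.89) and a median Spearman rho of 0.34. In mice labelled LPAR2-/-, all 36 pairs were positive, with a median r of 0.60 (range 0.002 to 0.95) and a median rho of 0.61. The mean r over all pairs of genes tested was 0.001 in either genotype. Exact permutation over the 5040 pairings of 7 mice gave raw p-values under 0.05 for 8 WT pairs and 11 LPAR2-/- pairs, and none of the 72 passed Benjamini-Hochberg adjustment, for Pearson or Spearman correlation. The strongest pair was Ifit1 with Rtp4 in LPAR2-/- mice (r = 0.95, exact p = 0.00377, adjusted p = 0.0905; rho = 0.96, exact p = 0.00278, adjusted p = 0.0971). Without the 2 mice farthest from the median of the first gene of each pair, the median r was 0.56 in LPAR2-/- mice and 0.19 in WT mice. The mice left out were chosen anew for each first gene, and leaving out extremes narrows its range. The fall in WT mice therefore does not show that the relation rested on particular mice.

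Genes with the same distribution over the mice were sought by correlating each gene with the mean scaled deviation of the 9 members from their genotype means, over 14 mice. Parp12, another PARP of the interferon response, ranked highest (Pearson r = 0.93, Spearman rho = 0.88). Outside the listed genes, the 5 most alike were Pacsin3 (r = 0.93, rho = 0.93), Igf1 (0.89 and 0.90), Sema3f (0.88 and 0.89), Pcgf5 (0.88 and 0.88) and Lima1 (0.88 and 0.81). None of these 6 genes differed between genotypes past the threshold, with adjusted p-values from 0.0896 for Sema3f to 0.993 for Igf1. Samd9l, Gbp7, Oasl2 and Irgm2, all listed as induced by interferons, also stood among the 40 genes most alike. Over all 105 tested genes of the wider pathway list described below, 92 had a positive r and 13 a negative one, with a median of 0.45 and a range from -0.71 (Ifngr2) to 0.93, beside a median of 0.001 and 50.1% positive over all genes tested.

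Markers of border macrophages and, in part, of meningeal fibroblasts and endothelium were highest in the same mice. The summed level of 6 border macrophage markers was 26.3 CPM in LPAR2-/- mouse 4, 19.9 in LPAR2-/- mouse 5 and 16.1 CPM in WT mouse 4, and 3.91 to 12.4 CPM in the other 11 mice. The sum of 7 meningeal fibroblast markers was 354, 398 and 302 CPM in these 3 mice, but also 323 CPM in LPAR2-/- mouse 6. Endothelial markers were highest in LPAR2-/- mouse 4 (287 CPM) and WT mouse 4 (279 CPM), within ranges of 196 to 287 CPM and 176 to 279 CPM. No marker of the 10 lists was at 0 in all mice, and each list overlapped between the genotypes. Neuronal markers moved the opposite way, with the lowest sums among LPAR2-/- mice in mice 4 and 5 (11680 and 11650 CPM, against 12010 to 13670 CPM) and a sum of 11860 CPM in WT mouse 4, the lowest of the WT mice after mouse 5 (11640 CPM).

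Between genotypes, 5 of 5 tested border macrophage markers and 6 of 7 meningeal markers had a fitted change above 0, with medians of 0.82 and 0.67 on the log2 scale. So did 3 of 3 choroid plexus markers (median 1.92), 7 of 8 of microglia (0.11) and 5 of 6 of oligodendrocytes (0.14). The counts were 1 of 1 for lymphocytes, 4 of 7 for endothelium, 4 of 8 for hippocampal fields, and 1 of 6 each for astrocytes and neurons. Over all genes tested, 7613 of 14897 lay above 0. Of the 68 markers 57 could be tested, and among these 57 Lum, a proteoglycan of fibroblasts, was called, beside 6.77% of all genes (log2 fold change 0.54, adjusted p = 0.0132). Microglial markers summed to 331 to 403 CPM (median 388) in LPAR2-/- mice and 328 to 403 CPM (median 340) in WT mice. They were not highest in the mice that were high for the 9 genes. The part of the cellular make-up in the levels of the 9 genes was not tested, and in bulk tissue fewer cells of a type cannot be told apart from less RNA per cell. Without the 3 mice with more than 15 CPM of border macrophage markers, a choice made after seeing the data, again none of the 9 genes was called, in a fit with 11 mice that called 278 of 14919 genes (1.86%), and Ifit3 had a fold change of 0.58 (adjusted p = 0.172). The values of Ifit1 and Rtp4 were then 0.11 and -0.02 (adjusted p = 0.820 and 0.967). All 9 genes lay above the mean of the genotype in each of the 3 mice left out. The fit therefore cannot tell the make-up apart from the levels of the 9 genes themselves.

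**Figure D4:**
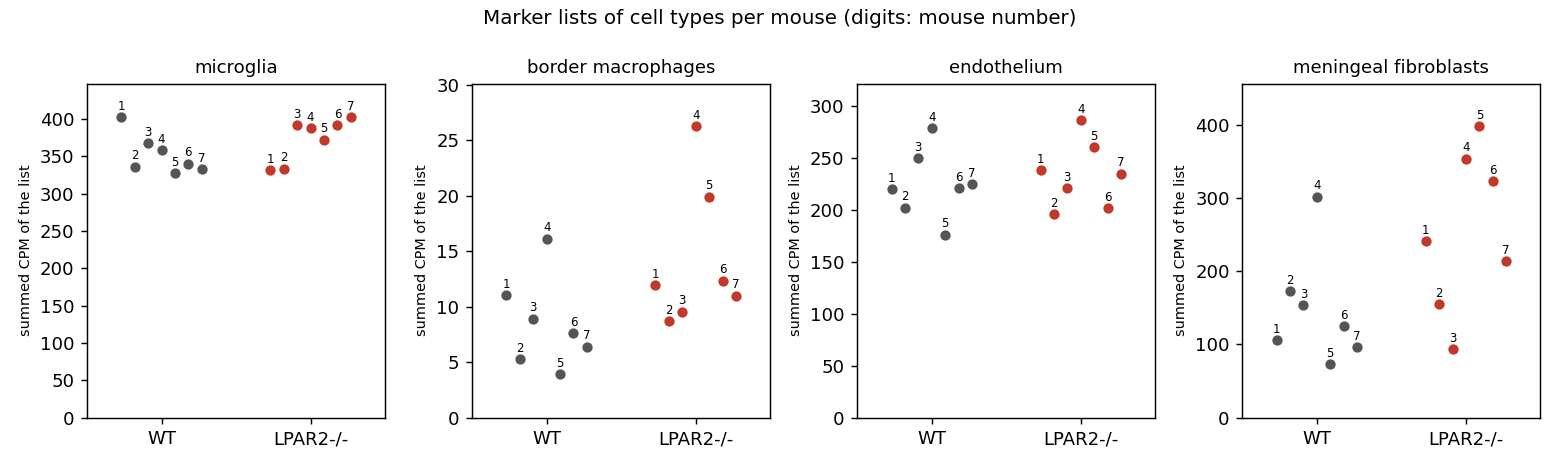
Summed level of the markers of 4 cell types in every mouse (y axis, CPM on a linear scale from 0; grey points, WT; red points, LPAR2-/-; digits, mouse number). Border macrophage markers reach 26.3, 19.9 and 16.1 CPM in LPAR2-/- mice 4 and 5 and WT mouse 4 and at most 12.4 CPM elsewhere, whereas microglial markers do not single out these mice.

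The wider interferon pathway was described with 130 further genes in 8 groups by role, of which 105 could be tested. Of these, 5 were called higher and 2 lower in mice labelled LPAR2-/-, a share of 6.67%, close to the 6.77% of all genes. The median fold change of the 105 genes was 0.05 on the log2 scale, and 70 had a value above 0. Without the 3 mice high in border macrophage markers, 3 of them were called higher and 1 lower, in the fit in which the share over all genes fell to 1.86%.

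Few reads were counted on the ligand genes named here. Ifnb1 had at most 1 read in any mouse, and Ifna2, Ifna4, Ifng, Ifne, Ifnk and Ifnl3 had 0 reads in all 14 mice, which allows up to 3 reads per library. Reads with several alignments were not kept, so 0 reads do not show absence for a gene with close copies. Other ligand genes are not given. None of the 5 tested receptor genes was called. Ifnar1 was measured at 57.6 ± 2.61 CPM in LPAR2-/- and 56.3 ± 1.92 CPM in WT mice (log2 fold change 0.03, adjusted p = 0.653), and Ifnar2 had a fold change of 0.05 (adjusted p = 0.731).

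Of 11 tested genes of JAK-STAT signalling and its inhibitors, only Ptpn2 was called. Ptpn2, a phosphatase that dephosphorylates JAKs, was lower with a log2 fold change of -0.21 (SE 0.0614, adjusted p = 0.0489), with 36.9, 37.8 and 42.1 CPM in LPAR2-/- mice against 37.3, 48.2 and 48.7 CPM in WT mice. The call of Ptpn2 held in 4 of 14 fits without 1 mouse and was lost with upper quartile scaling (adjusted p = 0.0593) and without a filter on low counts (adjusted p = 0.0555). It was also lost without the 3 mice high in border macrophage markers and without LPAR2-/- mice 2 and 3.

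Of 10 tested interferon regulatory factors and their partners, Irf2bp2 was called lower. It encodes a corepressor that binds IRF2 and ranged from 39.1 over 41.9 to 46.7 CPM in LPAR2-/- mice and from 44.7 over 54.0 to 63.8 CPM in WT mice. Of the LPAR2-/- mice, 5 lay below the lowest WT mouse, and the log2 fold change of Irf2bp2 was -0.38 (SE 0.0663, adjusted p = 0.00326). Irf3, the constitutive factor of interferon induction, had a fold change of -0.22 (adjusted p = 0.158). Irf1 and Irf8, both induced by interferon-gamma, had fold changes of 0.02 and 0.004 (adjusted p = 0.932 and 0.991), and the sign of each turned in some of the fits without 1 mouse (3 and 7 of 14).

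Among 14 tested sensors of nucleic acids and their adaptors, Eif2ak2 was called. It encodes PKR, the kinase that is activated by double-stranded RNA, and showed 3.77, 5.43 and 7.40 CPM in LPAR2-/- mice and 2.73, 3.21 and 3.86 CPM in WT mice. The log2 fold change was 0.82 (SE 0.139, adjusted p = 0.00272), and 6 of 7 LPAR2-/- mice lay above the highest WT mouse. It was called in each of the 14 fits without 1 mouse and also without the 3 mice high in border macrophage markers (0.77, adjusted p = 0.0324).

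Of 28 tested IFIT, OAS, MX and other antiviral effectors, only Ifit3b was called. This gene (chr19:34607957-34613401), a close copy of Ifit3, had 1.37, 2.41 and 3.05 CPM in LPAR2-/- mice and 0.930, 1.41 and 1.75 CPM in WT mice, with a fold change of 0.76 (SE 0.186, adjusted p = 0.0226). Its call was lost without WT mouse 5 (adjusted p = 0.0508) as well as without the 3 mice high in border macrophage markers (0.77, adjusted p = 0.0831) and without LPAR2-/- mice 2 and 3 (0.68, adjusted p = 0.0644). Of all 50-base windows of the longest Ifit3 transcript, 51.2% also occur in Ifit3b, so that reads of the 2 genes can only partly be assigned and the values of both are uncertain. The promoter stretch of Ifit3 printed above and the corresponding one of Ifit3b (chr19:34607744-34607837, plus strand) share all 94 bases, in Ifit3b with the matches 188 and 154 bases upstream of its start. Ifit2 (0.21, adjusted p = 0.376), Oasl2 (0.42, adjusted p = 0.160) and Bst2 (-0.19, adjusted p = 0.629) were not called.

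Eif2ak2 differed from these promoters in the place of its single match, which begins 18 bases downstream of the gene start (chr17:78882523-78882579, minus strand), and its window also held 1 match of TTCNNNGAA. The stretch is shown for comparison with the 4 stretches above.
Eif2ak2: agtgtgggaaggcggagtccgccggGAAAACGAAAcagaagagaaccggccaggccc

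None of the 8 tested genes of ISG15 conjugation and the PARP family was called, although all 8 fitted changes lay above 0 (0.04 to 0.25). Parp9 (0.10, adjusted p = 0.713) and Dtx3l (0.14, adjusted p = 0.606), which encode an ADP-ribosyltransferase and its partner ubiquitin ligase, were among them. Of 12 tested GTPases induced by interferon-gamma, Gbp4 was called higher, at 5.79 ± 1.94 CPM against 3.04 ± 0.964 CPM (SD, n = 7 each; log2 fold change 0.93, SE 0.231, adjusted p = 0.0259). The call of Gbp4 held in 8 of 14 fits without 1 mouse and was lost without the 3 mice high in border macrophage markers (0.76, adjusted p = 0.141).

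The pathway genes whose genotypes did not overlap, as in 1.77% of all genes tested, were Tor3a and Ifi30, both among 17 tested genes of other induced functions. Tor3a, an interferon-induced ATPase of the torsin family, was measured at 11.7, 12.7 and 13.5 CPM in LPAR2-/- mice and 6.59, 8.33 and 8.99 CPM in WT mice, with a fold change of 0.61 (SE 0.0697, adjusted p = 8.27e-05). Ifi30, a lysosomal thiol reductase of antigen processing, had 5.63, 6.71 and 7.48 CPM against 2.96, 3.47 and 5.15 CPM, with a fold change of 0.85 (SE 0.117, adjusted p = 0.0005). Ifi30 (chr8:70762773-70766663) and Bst2 lie within 10 Mb of the targeted Lpar2 (chr8:69822565-69831102). Irf2bp2 (chr8:126588296-126593436) is on the same chromosome, outside that interval. Of the 154 genes tested in that interval, Lpar2 left out, 40 were called, a share of 26.0%. None of the 9 interferon-stimulated genes is on chromosome 8.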

How the data were processed

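Hippocampal RNA of 14 mice was sequenced by the authors, after depletion of ribosomal RNA per the methods. According to the labels and methods, the authors trimmed reads with cutadapt 1.18, aligned them with STAR to mm10 and counted them per gene and strand with featureCounts 1.6.3. The deposited values are raw counts per gene, 1 column per mouse. A table that the authors normalized from the same counts was not used here. The counts were tested with edgeR 4.0.16 (R 4.3.3, TMM scaling, filterByExpr, robust quasi-likelihood F test, Benjamini-Hochberg over all genes tested), 7 LPAR2-/- against 7 WT mice without covariates, since no batch is named. DESeq2 1.42.0, other scalings and filters, the mouse number as a block and the omission of mice served as alternatives. CPM and RPKM were computed from the counts with TMM library sizes and the exon length of the table. Correlations used log2 CPM with a prior count of 2. Single genes were also tested by exact permutation. The smallest possible p is 0.000583 for genotypes and 0.000198 for pairings.

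Named genes were the 9 members, Lpar2, the pathway genes past the threshold, a set of receptors, factors and relatives whatever their values (1 of which is not reported here), and the 5 genes most alike. Parp12, Samd9l, Gbp7, Irgm2, Ifngr2, Lum, Gbp2 and the interferon genes at or near 0 reads fall outside this rule and were named after their values were seen. The members and lists were chosen with earlier results of these data known. In data simulated for this comparison over 14897 genes, edgeR recovered 96% of genes changed by 1 and 82% changed by 0.5 on the log2 scale, and 3.78% of its calls were false. DESeq2 recovered 99% and 88%, with 15% of its calls false. The counting options did not keep reads with several alignments, which bears on Ifit3 and Ifit3b and less on Ifit1 (7.13% of 50-base windows shared with other genes) and Rtp4 (13.6%), and no exon of the 9 genes overlapped another gene in the table. No 2 libraries of a genotype agreed within sampling noise. The depth of 15434620 to 23258949 reads left 9 to 43 reads per mouse for Usp18. The power at such counts, or at the spread of the 9 genes, was not tested separately. Their biological coefficient of variation had a median of 0.203, against 0.0897 over all genes tested.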

Additional observations from a re-analysis of the deposited data

Results flagged for a closer look

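For 28 genes named in the text, the highest or lowest mouse of each genotype was compared with its neighbour by Dixon's ratio, the gap to that neighbour over the whole range, at its 95% critical value for 7 mice. Of 56 groups, 5 held a mouse beyond it, and chance gives about 1 in 20. Ifit1 stood out in LPAR2-/- mouse 5 with 7.73 CPM (next mouse 2.80 CPM, ratio 0.777) and in WT mouse 4 with 3.75 CPM (next 2.34 CPM, ratio 0.617). Rtp4 reached 3.52 CPM in LPAR2-/- mouse 5 (next 2.32 CPM, ratio 0.584). Ifi30 was highest in WT mouse 1 with 5.15 CPM (next 3.71 CPM, ratio 0.658), and Tor3a was lowest in WT mouse 5 with 6.59 CPM (next 8.12 CPM, ratio 0.638). LPAR2-/- mouse 5 and WT mouse 4 are among the 3 mice that were high for the 9 genes and for border macrophage markers.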

How the results depend on the processing

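The number of the 9 genes called was 0 with other scalings, filters and the block by mouse number, and 1 with DESeq2 (Ifit3). Leaving out 1 mouse gave 0 to 1 of the 9, 3 to 6 pathway genes called higher, 1 to 3 called lower, 1 to 5 cell type markers and a fold change of Lpar2 from 1.92 to 2.10. The share of all genes called also moved in these fits, from 3.79% (without WT mouse 2) to 9.26% (without WT mouse 1). Signs turned for Isg15 (-0.035 to 0.082), Irf1 (-0.026 to 0.056) and Irf8 (-0.047 to 0.067). Upper quartile scaling, no filter and the block each left 1 pathway gene called lower, in fits that called 6.67%, 4.27% and 3.93% of all genes. Markers called numbered 5 with DESeq2, which called 9.32% of all genes, and 0 with the block. The median r between the 9 genes in WT mice was 0.188 without the 2 mice farthest from the median of the first gene of each pair. The 2 settings that follow were added after seeing the data. Without the 3 mice above 15 CPM of border macrophage markers, 3 pathway genes were called higher, 1 lower and 0 markers, beside 1.86% of all genes. The fold changes of Rtp4 (-0.022), Irf1 (-0.080) and Irf8 (-0.037) changed sign in that fit. Without LPAR2-/- mice 2 and 3, highest in choroid plexus and oligodendrocyte markers, 1 pathway gene was called lower and 5 markers, beside 6.38% of all genes. Irf8 was then at -0.030, Oasl2 (0.57, adjusted p = 0.0473) and Gbp2 were called, and Ifit3b was not (0.68, adjusted p = 0.0644). The causes were not tested.

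Mouse numbers are shared between genotypes, and no source says that they mark pairs. They did not meet the criterion for pairing, a correlation above 0.1 in every pair, since the correlations of same-numbered mice ran from -0.33 to 0.31, with 3 of 7 above 0.1 and 3 of 7 mice closest to their own number. With the replicate block, 586 genes were called instead of 1009, none of the 9 among them, Ptpn2 and Gbp4 missed the threshold (adjusted p = 0.102 and 0.0610) and Irf8 was at -0.000115. Upper quartile scaling gave 62% higher among the called genes instead of 49%. A minimum of 10 reads in every mouse removed Usp18 and left 8 of the 9 genes.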
